A study of Mus musculus with 24 samples.

Results

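Brain endothelial and tip cell genes were followed as 10 named genes out of the 54446 gene identifiers in the count tables. They are *Esm1*, *Slco1a4*, *Cldn5*, *Pecam1*, *Kdr*, *Flt1*, *Cdh5*, *Apln*, *Mfsd2a* and *Slc2a1*. *Esm1* was chosen on the female SP comparison of mutants with controls, where it lay past the study's thresholds, so its values in those libraries are given as a description with no test. The other 9 were added as endothelial, tip cell and blood-brain barrier genes to see whether *Esm1* moved with them, and *Slco1a4* was added with results of these data known. The p-values of *Slco1a4* below may therefore not be independent of its choice, and they are no separate support.

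Endothelial cells line every vessel. In the embryonic brain, vessels grow in from the surrounding plexus, led by tip cells that extend filopodia toward VEGF while stalk cells behind them form the tube. The same cells then take on the blood-brain barrier, with tight junctions and transporters that neighbouring neural cells induce through Wnt ligands. *Esm1* encodes endocan, a secreted proteoglycan widely used to mark tip cells. *Apln* encodes apelin, a peptide ligand that sprouting endothelium also makes. *Kdr* and *Flt1* encode VEGF receptors, with *Flt1* acting largely as a decoy. *Pecam1* and *Cdh5* encode adhesion molecules of endothelial junctions, and *Cldn5* the main tight junction claudin of brain endothelium. *Mfsd2a* carries lipids and restrains transcytosis, *Slc2a1* is the glucose transporter of the barrier and of other cells, and *Slco1a4* carries organic anions and is found in brain endothelium and in choroid plexus.

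The data are RNA-seq read counts from mouse brains at E14.5. *Tfap2b*-/- embryos, homozygous for an allele with a PGK-neo cassette in the fourth exon of the gene that every cell carries, and *Tfap2b*+/+ littermates came from crosses of heterozygous parents. Each of 12 embryos, labelled as 3 per sex and genotype, gave 1 library from the secondary prosencephalon (SP, the telencephalon and hypothalamus) and 1 from the diencephalon, midbrain and hindbrain (DMH). Female mutant 3 (mut3) was left out of genotype comparisons, as the study did, and its values are given beside them. In such bulk tissue, fewer endothelial cells and less RNA per endothelial cell cannot be told apart.

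Between 24.7 and 66.8 M read pairs per library were counted on genes. *Tfap2b* ranged from 277 to 438 CPM (read counts scaled to a fixed library size) in the 6 control DMH libraries and from 50.5 to 55.6 CPM in the 6 mutant ones. In SP it was between 2.78 and 4.90 CPM in every library, so the genotype could not be checked there from this gene. Of 20 further pan-endothelial genes fixed as a marker list, such as *Tek*, *Tie1* and *Emcn*, 20 had more than 3 reads in all 24 libraries. Several libraries stood apart. Both libraries labelled female control 2 contained Y-linked transcripts, and their Xist, 0.0346 CPM in SP and 0.0894 CPM in DMH, was far below the 176 to 892 CPM of the other 10 female libraries, so they went against their sex label. The label was kept, and values without this embryo are given below. The SP library of male mutant 1 had the highest shares of unmapped reads (9.98%, against 5.46 to 7.05% in the other 23 libraries), of reads mapped to several places (7.85%, against 4.96 to 5.81%) and of reads that named no gene (25.9%, against at most 21.05%). The SP library of male mutant 3 had 144 CPM summed over 10 meningeal and mesenchymal genes and 44.1 CPM over 10 choroid plexus genes, the lowest of all 12 SP libraries on each sum. The DMH library of female mut3 had 721 CPM of skeletal muscle genes and 1828 CPM of cartilage genes. Caudal Hox genes, which mark the hindbrain end of the dissection, summed to under 50 CPM in the DMH libraries of female control 1, female mutants 1 and 2 and male mutant 2.

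The 250 bases upstream of the RefSeq start were listed for 8 of the 10 genes (build GRCm38.p6). *Pecam1* and *Cdh5* had no entry. The gene bodies of *Esm1* (chr13:113209659-113218098, plus strand) and *Slco1a4* (chr6:141805440-141856199, minus strand) are annotated as protein coding. The upstream stretches were searched on both strands for GCCNNNGGC, the palindrome read by AP-2 proteins such as the product of *Tfap2b*, for AGGAAG, a core read by ETS factors that are active in endothelium, and for ACGTG, the core of hypoxia response elements. These motifs overlapped nowhere in the 3 sequences shown here. *Esm1* and *Slco1a4* are shown because the expression results turn on them, and *Flt1* because it was the single listed member with the AP-2 letters. Capitals mark a match to any of the 3 motifs.
Esm1, chr13:113209409-113209658, plus strand: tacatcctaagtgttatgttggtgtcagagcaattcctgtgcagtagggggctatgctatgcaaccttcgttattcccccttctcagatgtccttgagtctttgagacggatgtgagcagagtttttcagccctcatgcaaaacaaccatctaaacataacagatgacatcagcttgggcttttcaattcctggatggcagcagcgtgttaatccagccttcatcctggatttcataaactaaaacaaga
Slco1a4, chr6:141856221-141856470, minus strand: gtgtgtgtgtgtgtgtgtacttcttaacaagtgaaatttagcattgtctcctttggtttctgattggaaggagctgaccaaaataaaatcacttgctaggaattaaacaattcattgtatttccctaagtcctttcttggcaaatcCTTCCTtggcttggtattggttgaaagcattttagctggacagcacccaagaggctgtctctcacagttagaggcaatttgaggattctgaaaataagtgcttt
Flt1, chr5:147726012-147726261, minus strand: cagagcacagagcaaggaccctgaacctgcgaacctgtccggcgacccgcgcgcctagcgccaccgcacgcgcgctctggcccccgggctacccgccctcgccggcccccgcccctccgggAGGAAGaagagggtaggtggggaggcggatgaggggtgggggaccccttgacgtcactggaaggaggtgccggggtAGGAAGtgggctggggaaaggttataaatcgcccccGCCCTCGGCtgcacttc
The *Esm1* stretch held none of these letters. The AP-2 letters stood in 13.7% of all 32851 promoter stretches of this length, the ETS letters in 29.5% and the hypoxia letters in 16.6%. The ETS letters occurred in *Slco1a4*, *Flt1* and *Apln*, and the hypoxia letters in *Mfsd2a* and *Slc2a1*. *Cldn5* and *Kdr*, like *Esm1*, held none.

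On a scale of CPM per kilobase of exon, which allows genes to be compared, *Slc2a1* led in the 6 control SP libraries at 30.0 ± 5.24 (SD), followed by *Cldn5* at 23.5 ± 1.56, *Cdh5* at 16.1 ± 1.15 and *Mfsd2a* at 10.6 ± 0.814. The receptor gene *Kdr* was at 7.64 ± 0.788, *Pecam1* at 6.26 ± 0.545, *Apln* at 3.34 ± 0.848 and *Flt1* at 1.78 ± 0.214. *Esm1*, at 0.680 ± 0.149, and *Slco1a4*, at 0.641 ± 0.163, were lowest and differed by less than either SD. In control DMH, *Cldn5* at 28.1 ± 1.80 and *Slc2a1* at 25.2 ± 4.47 stood in the reverse order and differed by less than the SD of *Slc2a1*, and *Esm1* at 0.438 ± 0.128 was the lowest, below *Slco1a4* at 0.554 ± 0.0986 by less than its SD. The other 8 members rested on 171 to 5183 reads per library, while *Esm1* rested on 7 to 108 reads per library and *Slco1a4* on 12 to 344.

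These counts bear on how far single values can be read. The lowest *Esm1* value, 0.246 CPM in SP of male mutant 3, came from 7 reads, with an exact Poisson interval (95%) of 0.0991 to 0.508 CPM. Such intervals cover counting error only, and reads from PCR copies were not told apart. Across the 12 SP libraries the highest value was 6.95 times the lowest for *Esm1* and 12.99 times for *Slco1a4*, against 1.46 to 2.17 times for the other 8 genes. Across the 12 DMH libraries the same ratio was 2.15 for *Esm1*, 4.22 for *Slco1a4* and 1.22 to 1.87 for the other 8. *Esm1* and *Slco1a4* were the 2 members whose levels varied most between embryos in each region.

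**Figure D1:**
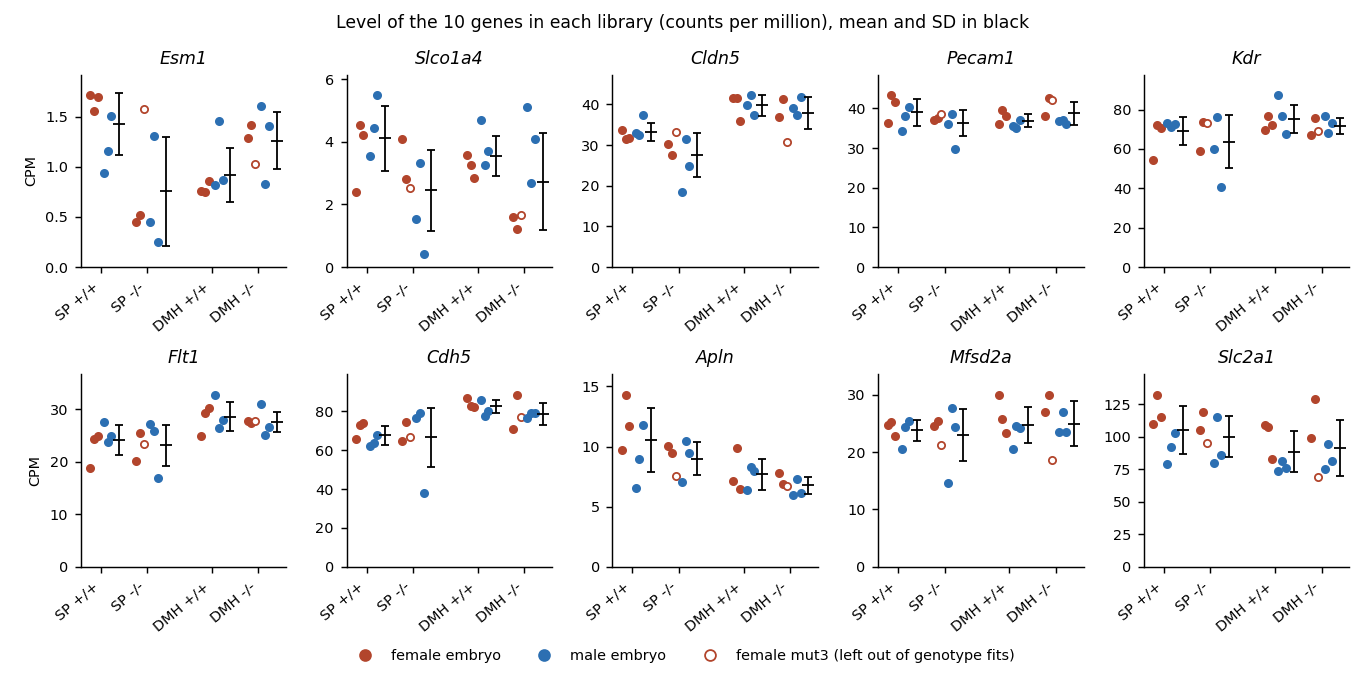
Level in CPM (vertical axes, each from 0) of the 10 genes in each library, by region and *Tfap2b* genotype, with females in red, males in blue and female mut3 as an open circle. Black marks give the mean and SD of the 6 libraries. *Esm1* and *Slco1a4* spread widely in mutant SP, while *Pecam1* stayed between 29.8 and 43.4 CPM in all 24 libraries.

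In female SP, the comparison on which *Esm1* was chosen, the 3 controls had 1.71, 1.56 and 1.69 CPM of *Esm1*. Mutants 1 and 2 had 0.446 and 0.521 CPM, below every control, and the excluded mut3 had 1.57 CPM, a control-like value. The log2 fold change without mut3 was −1.76, and with mut3 it was −0.94. Of the 16615 genes in this comparison, 0.0181% passed both thresholds used throughout, an adjusted p under 0.2 and a log2 difference of over 0.5 in size, and none of the 9 members other than *Esm1* was among them. *Esm1* passed them by the choice, and it fell short of them with any 1 of the 5 embryos left out, or with mut3 included. The other 9 members had log2 fold changes from −0.29 for *Apln* to 0.04 for *Mfsd2a*. The median over the 10 members was −0.10, against 0.00 over all genes in the comparison. Lists of other cell types had medians of similar size there, −0.16 over 10 choroid plexus genes, −0.13 over 10 microglial genes and −0.11 over 9 erythroid genes, and their part in the members' values was not tested. The other tip cell gene, *Apln*, had 9.75, 14.3 and 11.7 CPM in the controls and 10.1 and 9.46 CPM in mutants 1 and 2, so that the groups overlapped.

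The summed level of endothelial genes overlapped between the genotypes in the same female SP libraries. The 20 pan-endothelial genes summed to 256, 289 and 283 CPM in the 3 female controls and to 252 and 287 CPM in mutants 1 and 2. Expressed per 1000 CPM of that sum, *Esm1* was at 6.70, 5.38 and 5.98 in the controls, at 1.77 and 1.81 in mutants 1 and 2, and at 6.03 in mut3. These ratios use the libraries on which *Esm1* was chosen, and the part of the endothelial share in its values was not tested. Without mut3, *Cldn5* was the 1 member of the 9 other than *Esm1* whose groups did not overlap, against 15.4% of all genes in either direction. *Cldn5* had 33.6, 31.4 and 31.8 CPM in the controls and 30.2 and 27.5 CPM in mutants 1 and 2. With mut3, at 33.3 CPM, this was no longer so for *Cldn5*, nor for *Esm1*. The 20 pan-endothelial genes had a median log2 fold change of −0.03 there, and the 10 tip cell genes one of −0.10.

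Male SP compared the same genotypes in embryos that had no part in the choice of *Esm1*, and *Esm1* was not called there. The 3 male controls had 0.935, 1.16 and 1.51 CPM of *Esm1*, and the 3 male mutants had 0.453, 1.31 and 0.246 CPM. Mutants 1 and 3 lay below all controls and mutant 2 lay among them, so the groups overlapped. The log2 fold change was −0.80 (SE 0.550, 95% interval −2.08 to 0.48, edgeR adjusted p = 0.967), so a fall as large as that seen in female SP and no change were both inside the interval. Leaving out mutant 2 moved the value to −1.81, and leaving out mutant 3 moved it to −0.39, with 0 members called either way.

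*Slco1a4* and *Cldn5* were the members whose 3 male mutants all lay below the 3 male controls in SP. *Slco1a4* had 3.55, 4.45 and 5.49 CPM in the controls and 1.52, 3.31 and 0.423 CPM in the mutants. Its log2 fold change was −1.34 (SE 0.578, 95% interval −2.68 to 0.00, edgeR adjusted p = 0.967). Leaving out mutant 2 moved it to −2.26, and leaving out mutant 3 to −0.86. *Cldn5* had 32.9, 32.5 and 37.5 CPM in the controls and 18.5, 31.4 and 24.9 CPM in the mutants, or −0.47 on the log2 scale (SE 0.202, with the same adjusted p). The groups did not overlap for 12.0% of all genes in this comparison, and an exact permutation test of 3 against 3 embryos cannot give a p below 0.1, the value it gave for each of these 2 genes. None of the 10 members was called, as was 0.0% of the 16562 genes tested. At an unadjusted p under 0.05, 1 member passed, against 3.65% of genes, and DESeq2 called 0 members.

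The male SP libraries also differed in other tissue. The SP library of male mutant 3 was the lowest of the 12 on the pan-endothelial, mural, meningeal and choroid plexus sums, with 183 CPM of pan-endothelial genes against 226 to 289 CPM in the other 11 SP libraries, and 234 CPM of mural genes against 283 to 335 CPM in the others. In it *Pecam1* was at 29.8, *Kdr* at 40.6 and *Cdh5* at 37.7 CPM, the lowest SP values of these 3 genes. Male mutant 1 had the next lowest pan-endothelial and choroid plexus sums, 226 and 222 CPM, and the lowest *Cldn5* and *Mfsd2a*, 18.5 and 14.7 CPM. It was also the library with the highest shares of unmapped reads and of reads naming no gene. Without it the male SP values were −0.57 for *Esm1*, −1.22 for *Slco1a4* and −0.28 for *Cldn5*, none of them called. In SP of male mutant 1, *Cdh5* was at 76.6 CPM, above all 3 male controls. Per 1000 CPM of pan-endothelial genes, *Esm1* was at 3.91, 4.76 and 5.28 in the male controls and at 2.00, 4.60 and 1.35 in the mutants. On this scale mutants 1 and 3 lay below the controls and mutant 2 lay among them. The part of the tissue composition in the *Esm1* and *Slco1a4* values was not tested.

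With both sexes of SP in 1 fit, a description since it includes the female libraries, the log2 fold change of *Esm1* was −1.20, that of *Slco1a4* −0.76 and that of *Cldn5* −0.33, and the 10 members had a median of −0.13 against −0.01 over all genes. All 10 had negative values, from −1.20 to −0.01, and none was called, as was 0.0% of the 16409 genes. Lists of other cell types were also mostly negative there. The median was −0.53 for choroid plexus genes (10 of 10 negative), −0.17 for mural genes (11 of 12) and −0.17 for microglial genes (8 of 10). Skeletal muscle genes had a positive median, 0.27. The part of these tissues in the members' values was not tested. Without male mutants 1 and 3, an alternative added after seeing the data, *Esm1* was at −0.90 and *Slco1a4* at −0.25.

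**Figure D2:**
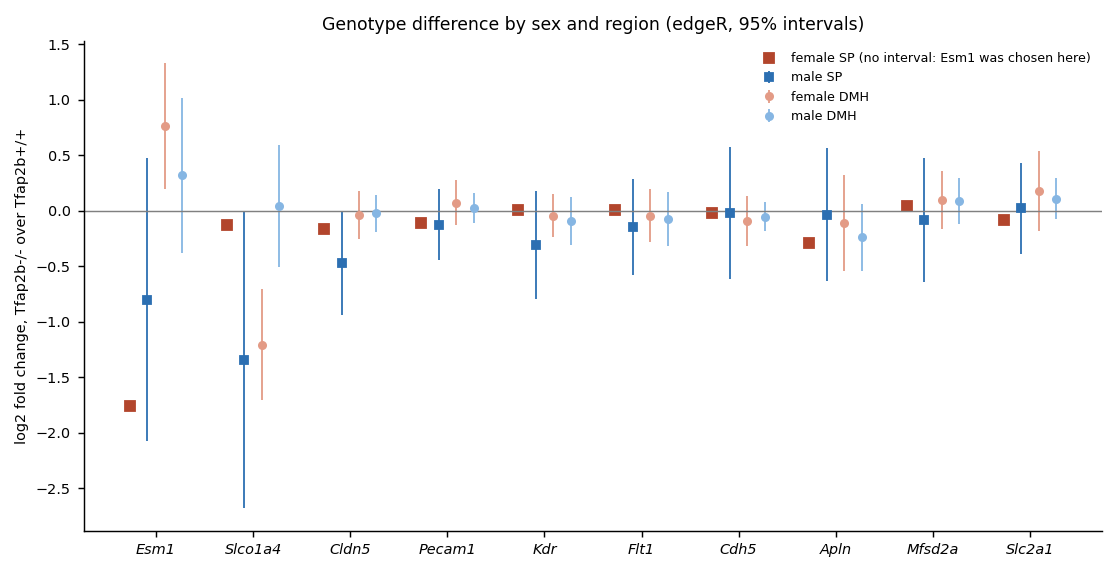
Log2 fold change of *Tfap2b*-/- over *Tfap2b*+/+ (vertical axis) for the 10 genes within sex and region, without female mut3. Lines are 95% intervals from edgeR, drawn for the 3 comparisons that had no part in the choice of *Esm1*. The *Esm1* estimates lay below 0 in SP and above 0 in DMH in each sex, with both male intervals reaching across 0, and 8 of the 10 genes lay between −0.47 and 0.18 in all 4 comparisons.

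In DMH, where *Tfap2b* is strongly expressed, the estimates of the *Esm1* difference were above 0. The 3 female controls had 0.759, 0.745 and 0.855 CPM and the female mutants 1.28, 1.42 and, for the excluded mut3, 1.02 CPM. All female mutants lay above all female controls, with or without mut3. The log2 fold change without mut3 was 0.76 (SE 0.25, 95% interval 0.19 to 1.33), with an unadjusted p of 0.0147 and an edgeR adjusted p = 0.551. In male DMH the controls had 0.822, 1.46 and 0.871 CPM and the mutants 1.60, 0.827 and 1.40 CPM, and these groups overlapped. The log2 fold change there was 0.32 (SE 0.309, 95% interval −0.38 to 1.02, edgeR adjusted p = 0.870). With both sexes fitted together, the *Esm1* log2 fold change was 0.50 (SE 0.211, 95% interval 0.04 to 0.96), which did not pass after adjustment (edgeR adjusted p = 0.323).

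*Slco1a4* was the other member whose female DMH groups did not overlap. The 3 controls had 3.57, 3.25 and 2.83 CPM and the mutants 1.61, 1.21 and, for mut3, 1.67 CPM. The log2 fold change was −1.21 (SE 0.219, 95% interval −1.71 to −0.71), with an unadjusted p of 4.43e-04 and an edgeR adjusted p = 0.551. In male DMH the controls had 4.68, 3.27 and 3.72 CPM and the mutants 5.10, 2.70 and 4.08 CPM, a log2 difference of 0.04 (SE 0.24, adjusted p = 0.977 from edgeR), and the groups overlapped. With both sexes the value was −0.41 (SE 0.247, edgeR adjusted p = 0.381). The exact permutation test gave p = 0.2 for 3 controls against 2 female mutants for *Esm1* and for *Slco1a4*, the smallest p that 2 mutants allow in this two-sided test, and p = 0.1 with mut3, again the smallest possible.

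None of the 10 members was called in female, male or combined DMH, where 0.00596%, 0.0236% and 0.0478% of all genes were called. At an unadjusted p under 0.05, 2 members passed in females, *Esm1* and *Slco1a4*, 0 in males and 1 in the combined fit, against 8.9%, 2.89% and 15.2% of all genes. DESeq2 called 1 in females, *Slco1a4*, and 0 in the others. The groups did not overlap for 26.5% of genes in female DMH and 8.3% in male DMH, against 2 and 0 of the 10 members. The share in females fell to 4.84% with mut3 included, and *Esm1* and *Slco1a4* were still 2 of 10. Without female control 1, both genes passed the thresholds, *Esm1* at 0.74 (edgeR adjusted p = 0.191) and *Slco1a4* at −1.13 (edgeR adjusted p = 0.0605). In that fit 6.63% of all genes were called, 1117 against 1 with the library. That library and those of both female mutants were the female DMH libraries under 1 CPM of caudal Hox genes. In the combined fit without the 4 embryos low in these genes, *Esm1* was at 0.54 and *Slco1a4* at 0.26, neither of them called. In that fit female mutants 1 and 2 were both absent, and the part of the dissection in the female values was not tested. Without female control 2, *Esm1* was at 0.72 and *Slco1a4* at −1.20 in female DMH, and *Esm1* was at −1.80 in female SP.

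The other 8 members differed little in DMH. With both sexes together their log2 fold changes ran from −0.18 for *Apln* (95% interval −0.43 to 0.07) to 0.14 for *Slc2a1* (95% interval −0.05 to 0.33). For *Pecam1* the value was 0.05 (95% interval −0.05 to 0.15), and for *Cldn5* −0.03 (95% interval −0.15 to 0.10). Genotype differences in the VEGF receptor genes were −0.07 for *Kdr* (95% interval −0.21 to 0.07) and −0.06 for *Flt1* (95% interval −0.23 to 0.10). The pan-endothelial sum was 267 to 293 CPM in the 6 DMH controls and 269 to 318 CPM in the 6 mutants. Of the 88 or 89 tested genes of the pan-endothelial, tip cell, angiogenic, blood-brain barrier, mural and hypoxia lists, edgeR and DESeq2 each called 0 in all 4 comparisons within sex and region. At an unadjusted p under 0.05, 7 passed in female SP, 3 in male SP, 5 in female DMH and 3 in male DMH. Of all genes, 2.58% passed at that level in female SP, 3.65% in male SP, 8.9% in female DMH and 2.89% in male DMH. The medians of the tested list members lay between −0.29 and 0.08, against −0.03 to 0.00 for all genes. The most negative of them, −0.29 for 9 tip cell genes and −0.28 for 12 mural genes, were both in male SP. Beyond these lists, the male SP median was −0.91 for choroid plexus genes, −0.20 for microglial genes and 0.36 for skeletal muscle genes. The choroid plexus median was −0.81 in female DMH and 0.09 in male DMH.

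*Slco1a4* varied with the choroid plexus genes across libraries. In the 3 female DMH mutants the 10 choroid plexus genes summed to 232, 409 and 287 CPM, against 540, 589 and 579 CPM in the female controls. In male DMH the sums were 539 to 786 CPM in controls and 587 to 771 CPM in mutants. Over the 12 DMH libraries the Pearson correlation of *Slco1a4* with that sum, on log2(CPM + 0.25), was 0.853 (Spearman 0.748). The permutation p of the Pearson value was 0.0129 after adjustment over 120 pairs of member and list, and that of the Spearman value 0.0742. Over the 12 SP libraries it was 0.963 (Spearman 0.895, adjusted permutation p = 6e-04 and 0.0102), the first from the smallest p that 100000 permutations can give.

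Within parts of the data the same correlation varied. Without the 2 libraries whose choroid plexus sum was farthest from the median, r was 0.819 in SP and 0.877 in DMH. Within the 6 SP controls r was 0.848 (rho 0.600, exact permutation p = 0.025 and 0.242), and within the 6 SP mutants 0.971 (rho 0.943, exact permutation p = 0.00972 and 0.0167). Leaving the 3 female mutants out of DMH, r was 0.770 and rho 0.450 over 9 libraries (exact permutation p = 0.0188 and 0.230). Within the 6 DMH controls r was 0.694 and rho −0.0857 (exact permutation p = 0.196 and 0.919), so within the DMH controls the relation did not hold in rank. With the pan-endothelial sum, r of *Slco1a4* was 0.830 in SP and −0.454 in DMH, and these became 0.183 and 0.190 without the 2 farthest libraries of each region, so neither value held and the sign in DMH turned.

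**Figure D3:**
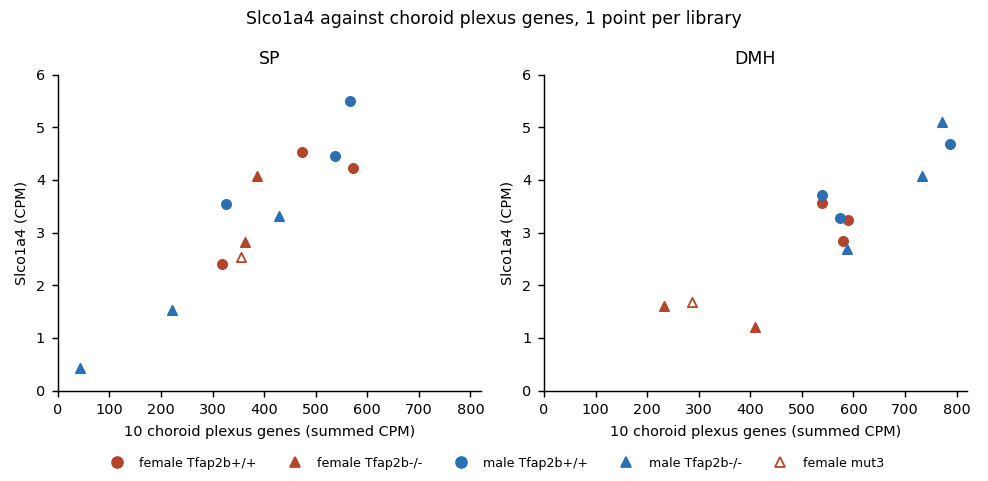
*Slco1a4* in CPM (vertical axis) against the summed CPM of 10 choroid plexus genes (horizontal axis), 1 point per library, in SP on the left and DMH on the right. Circles are controls, triangles mutants, and the open triangle is female mut3. The lowest SP point is male mutant 3, with 0.423 CPM of *Slco1a4* and 44.1 CPM of choroid plexus genes, and the 3 female mutants form the low group in DMH.

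Whether *Esm1* moved with the other endothelial genes was then asked across libraries within a region. In DMH, over 12 embryos, its Pearson correlations with the other 9 members ran from −0.414 with *Cdh5* to 0.166 with *Cldn5*, and its Spearman correlations from −0.545 with *Cdh5* to 0.0839 with *Cldn5*. None of the 9 pairs passed a permutation test after adjustment, with a smallest adjusted p of 0.977 for r and 0.624 for rho, and none had an unadjusted p under 0.05. Without the 2 DMH libraries farthest from the *Esm1* median, male mutant 1 and male control 2, the Pearson values ran from −0.547 with *Slco1a4* to 0.331 with *Pecam1*. With 12 libraries, correlations of moderate size would not pass this test, so these values do not show that *Esm1* varied on its own. Among the 8 libraries not low in caudal Hox genes, 1 of the 9 passed, *Cdh5*, with rho = −0.905 (exact permutation p = 0.0411 after adjustment) and r = −0.770 (adjusted p = 0.290).

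In SP the same correlations were all positive, from 0.279 with *Mfsd2a* to 0.725 with *Cldn5*, with a median of 0.502, and the Spearman values ran from −0.0839 with *Flt1* to 0.734 with *Cldn5*. They are given with no p, since they include the libraries on which *Esm1* was chosen, and all pairs share the same libraries, so that 1 library low in endothelial RNA moves every pair. Without the libraries of female mutant 1 and male mutant 3, the 2 farthest from the *Esm1* median, r with *Cldn5* was 0.800 and with *Pecam1* 0.523, with *Mfsd2a* 0.556, with *Slco1a4* 0.551, with *Apln* 0.538 and with *Slc2a1* 0.428. With *Kdr* it was 0.0740, with *Cdh5* −0.286 and with *Flt1* −0.559, so for these 3 genes the positive correlation rested on those 2 libraries. The median correlation of each member with the remaining 9 was between 0.279 and 0.685 in SP and between −0.149 and 0.390 in DMH. The sole pair of members above 0.8 in DMH was that of *Mfsd2a* and *Slc2a1*, with r = 0.889.

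**Figure D4:**
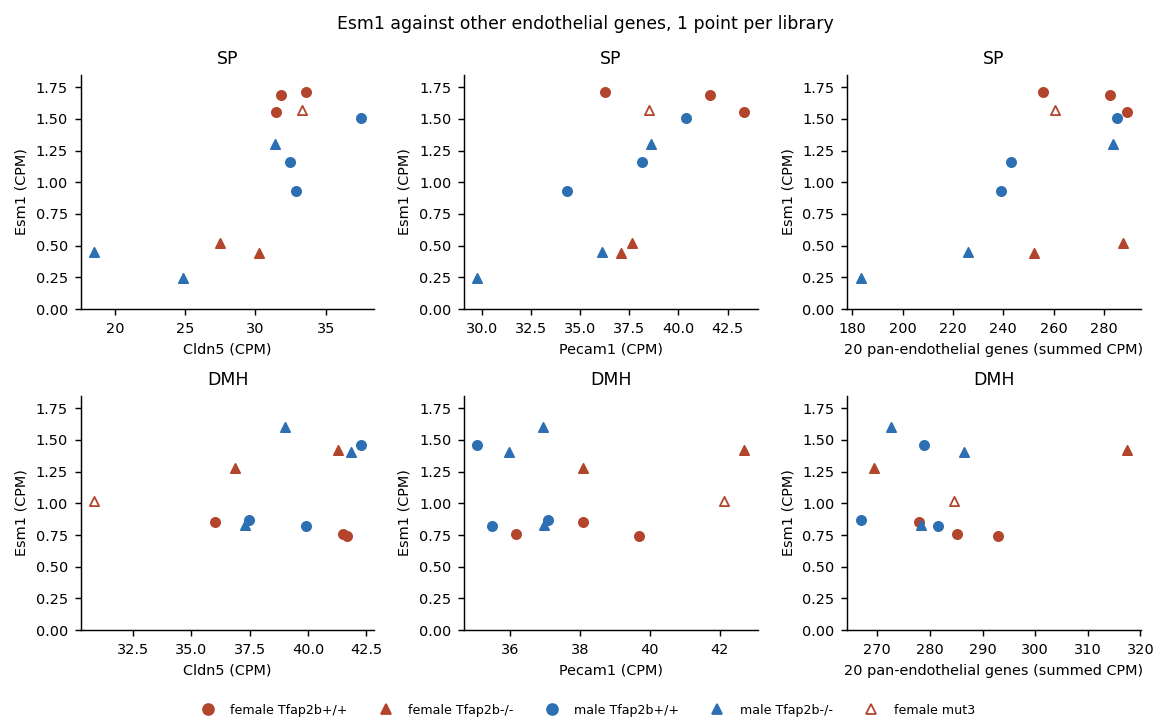
*Esm1* in CPM (vertical axes, from 0) against *Cldn5*, *Pecam1* and the sum of 20 pan-endothelial genes (horizontal axes, not from 0), 1 point per library, in SP above and DMH below. In SP, female mutants 1 and 2 had low *Esm1* at pan-endothelial sums of 252 and 287 CPM, while male mutant 3 was low in each quantity. In DMH the 9 correlations of *Esm1* with members lay between −0.414 and 0.166.

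The gene whose pattern was most like that of *Esm1* over the 2 regions, by the mean of its Pearson correlations in SP and DMH among 18088 other genes, was *She*, an adaptor gene expressed in endothelium, with r = 0.767 in SP and 0.599 in DMH. It was followed by *3110083C13Rik*, *Myo1g*, *Nek10* and *Dnaaf1*, which had mean levels of 0.336 to 0.619 CPM. Of the members, *Cldn5* stood highest in that order at rank 193, then *Pecam1* at 504 and *Kdr* at 643, and *Apln*, the other tip cell gene, lowest at 8934. For *Cldn5*, *Pecam1* and *Kdr* in turn, r with *Esm1* was 0.725, 0.718 and 0.607 in SP and 0.166, 0.0278 and 0.0991 in DMH. The SP values include the libraries on which *Esm1* was chosen. For *Cldn5* the closest gene was *Nos3*, endothelial nitric oxide synthase, with r = 0.851 in SP and 0.951 in DMH. The next were *Slc38a3*, *Slc9a3r1*, *Pitpnm1* and *Armc6*. *Mfsd2a* was the highest member at rank 400, and *Esm1* stood at rank 1984. With the most like genes picked out of so many, these ranks are a description.

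Other members also varied with the summed levels of lists, in comparisons added after seeing the data. The lists were pan-endothelial, mural, choroid plexus, meningeal and mesenchymal, erythroid and microglial. Leaving out *Esm1*, 17 of 54 pairs of member and list in SP and 5 of 54 in DMH passed by r after adjustment, and 6 and 1 of these passed by rho as well. The pairs are not independent, since male mutant 3 was lowest on several sums in SP. *Slc2a1* followed the pan-endothelial sum in SP (r = 0.761, Spearman 0.867, adjusted permutation p = 0.0222 and 0.0174, r = 0.825 without the 2 farthest libraries). *Slco1a4*, *Kdr* and *Cdh5* passed with that sum in SP by r but not by rho. In DMH no member passed with it. *Pecam1* followed the pan-endothelial sum in SP (r = 0.896, Spearman 0.825, adjusted permutation p = 0.0069 and 0.0257). It also followed the meningeal and mesenchymal sum there (r = 0.849, Spearman 0.811, adjusted permutation p = 0.0149 and 0.0321). With the choroid plexus sum its SP correlation was of like size (r = 0.879, Spearman 0.860, adjusted permutation p = 0.00696 and 0.0174, r = 0.745 without the 2 farthest libraries). In DMH the correlation of *Pecam1* with the choroid plexus sum was negative (r = −0.599, Spearman −0.538, adjusted permutation p = 0.116 and 0.281). The correlation of *Slco1a4* with the microglial sum in SP, 0.820, fell to 0.438 without its 2 farthest libraries. In DMH, 3 of the 5 pairs were with the microglial sum, each with an adjusted permutation p = 0.0325 for r. For *Cldn5* r was 0.749, for *Cdh5* 0.759 and for *Slc2a1* 0.743, and without the 2 farthest libraries they were 0.797, 0.537 and 0.422. None of these 3 passed by rho. In DMH, *Mfsd2a* was lower where the meningeal and mesenchymal sum was higher (r = −0.817, Spearman −0.832, adjusted permutation p = 0.0048 and 0.0257, r = −0.866 without the 2 farthest libraries). The DMH library of female mut3, with 3216 CPM of those genes against 736 to 1237 CPM in the other 11, had the lowest DMH values of *Mfsd2a*, *Cldn5* and *Slc2a1*, 18.7, 30.8 and 68.8 CPM. Its *Pecam1* was 42.1 CPM, above all 6 controls. *Kdr* followed the mural sum in SP (r = 0.974, Spearman 0.958, adjusted permutation p = 6e-04 and 0.0024, r = 0.874 without the 2 farthest libraries).

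Between the regions of control embryos, 7 of the 9 members other than *Esm1* had an adjusted p under 0.2 with a mean difference under the fold threshold of 0.5. Of all 16618 genes, 80.1% had an adjusted p under 0.2, so this count is near the background. *Cdh5* was higher in DMH in 6 of 6 embryos, by 0.29 on the log2 scale (SE 0.0461, edgeR adjusted p = 1.5e-04). *Flt1* was higher in 6 of 6 by 0.25 (SE 0.0455, edgeR adjusted p = 3.79e-04), and *Cldn5* in 5 of 6 by 0.26 (SE 0.0549, edgeR adjusted p = 0.00122). *Apln* was lower in DMH in 6 of 6 embryos, at −0.43 on the log2 scale (SE 0.100, edgeR adjusted p = 0.00233), and so was *Slc2a1*, at −0.25 (SE 0.0596, edgeR adjusted p = 0.00304). The size varied between embryos, from −0.83 to −0.05 for *Apln*, from −0.47 to −0.01 for *Slc2a1*, from −0.00215 to 0.40 for *Cldn5*, from 0.15 to 0.46 for *Cdh5* and from 0.15 to 0.40 for *Flt1*. *Kdr*, at 0.13, and *Pecam1*, at −0.07, also had adjusted p under 0.2 (0.0518 and 0.140 from edgeR) with smaller folds. *Slco1a4*, at −0.20, and *Mfsd2a*, at 0.05, did not (0.294 and 0.409). In the 3 male controls alone *Apln* was at −0.25 (edgeR adjusted p = 0.137) and *Cdh5* at 0.34 (edgeR adjusted p = 0.00184).

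None of these 9 members was called between regions in controls, against 35.0% of 16618 genes called in either direction. For *Esm1* the log2 difference was −0.64, given with no test because the fit contains the female SP controls used in choosing it, which had 1.71, 1.56 and 1.69 CPM in SP and 0.759, 0.745 and 0.855 CPM in DMH. Without female control 2 it was at −0.56. In the 3 male controls alone, the log2 difference of *Esm1* was −0.23 (SE 0.270, 95% interval −0.86 to 0.41, edgeR adjusted p = 0.503). None of the 10 members was called there by edgeR, against 35.6% of genes called in either direction. An unadjusted p under 0.05 was reached by 4 of them, against 62.4% of genes, and DESeq2 was not run on this subset.

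In mutant embryos, without mut3, *Cldn5* was higher in DMH than in SP in 5 of 5 embryos, by 0.57 on the log2 scale (SE 0.124, edgeR adjusted p = 0.00503). It was the 1 member called of the 9 other than *Esm1*, against 35.6% of genes. The *Esm1* value, 1.21, with the DMH library above the SP library in 4 of 5 embryos, is given with no test, since it rests on the female SP mutants used in choosing the gene. In the 3 male mutants alone *Esm1* was at 1.04 (SE 0.586, edgeR adjusted p = 0.201) and missed the threshold. *Cldn5* there was at 0.67 (SE 0.171, edgeR adjusted p = 0.0188) and *Slco1a4* at 1.38 (SE 0.577, edgeR adjusted p = 0.0987), and both were called, beside 38.7% of genes. In all 5 mutants *Slco1a4* was at 0.27 (SE 0.623, edgeR adjusted p = 0.739) and lower in DMH in 3 of 5, so its male value rested on male mutants 1 and 3, whose SP libraries stood apart. Without one or the other of those, the value over the remaining mutants was −0.12 and −0.27. Without male mutant 1, *Cldn5* in the 4 remaining mutants was at 0.46, under the fold threshold. *Apln* was lower in DMH in 5 of 5 mutant embryos (−0.46, SE 0.101, edgeR adjusted p = 0.00567), again under the fold threshold.

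The difference between these contrasts was tested as an interaction in the 6 male embryos, which had no part in the choice of *Esm1*. The change from SP to DMH was larger in mutants than in controls by 1.22 on the log2 scale for *Esm1* (SE 0.736, 95% interval −0.45 to 2.89), by 1.52 for *Slco1a4* (SE 0.711) and by 0.45 for *Cldn5* (SE 0.207), each with an edgeR adjusted p = 0.977. Without mutant 2 the values were 2.37 for *Esm1* and 2.58 for *Slco1a4*, and without mutant 3 they were 0.70 and 0.88. Without mutant 1 that of *Esm1* was 0.79. That of *Cldn5* was 0.25 without mutant 1 and 0.72 without mutant 2. None of the 10 members was called, as was 0.0057% of genes, which was *Tfap2b* alone. No member had an unadjusted p under 0.05, against 2.32% of genes, and DESeq2 called 0. In the male mutants the low *Esm1* values of SP and the high values of DMH came from the same embryos. Mutants 1 and 3 had 0.453 and 0.246 CPM in SP and 1.60 and 1.40 CPM in DMH, and mutant 2 had 1.31 and 0.827 CPM.

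**Figure D5:**
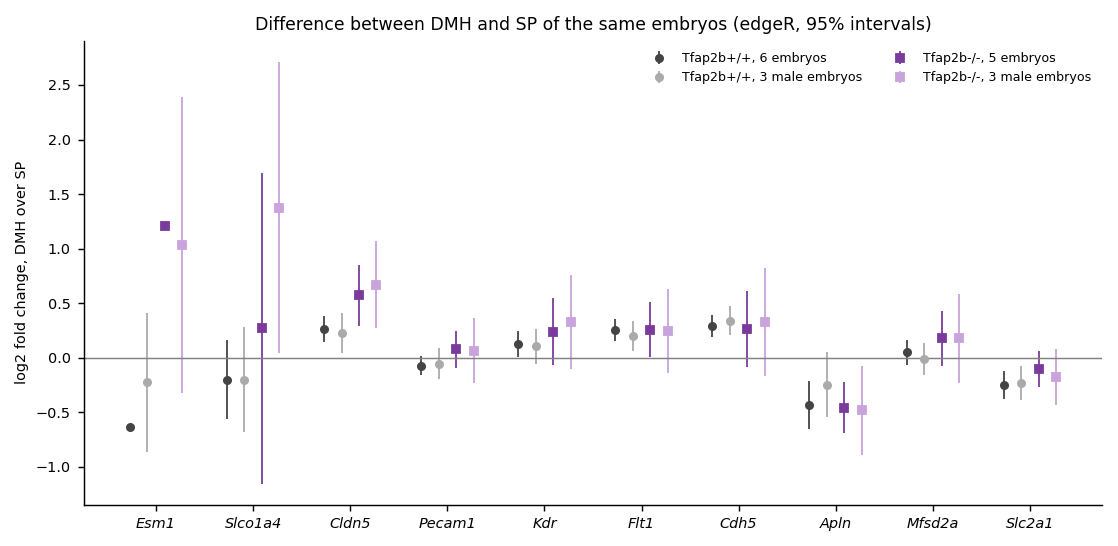
Log2 fold change of DMH over SP within embryos (vertical axis) for the 10 genes, in controls and mutants, for both sexes and for males alone. Lines are 95% intervals from edgeR, left out for *Esm1* in the fits of both sexes, which contain the libraries used in choosing it. The intervals of the 3 male control embryos and the 3 male mutant embryos overlap for *Esm1*, and the *Apln* estimate lies below 0 in all 4 fits, with an interval that reaches 0.05 in male controls.

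The remaining genes of the pathways, from lists that were also drawn up with earlier results known, differed between regions in both directions. Over the 6 lists, 22 of 88 genes were called in controls and 29 of 88 in mutants, beside 35.0% and 35.6% of all genes, so the counts of calls are no result about the lists. In control embryos 1 of 20 pan-endothelial genes was called higher in DMH, *Ptprb*, a vascular phosphatase, at 0.50 (SE 0.0519, edgeR adjusted p = 4.31e-06), and 1 lower, *Plvap*, a component of endothelial diaphragms that barrier vessels lose, at −0.71 (SE 0.116, edgeR adjusted p = 1.98e-04). Of 9 tip cell genes tested, *Angpt2*, a Tie2 ligand, was higher by 1.01 (SE 0.0891, edgeR adjusted p = 1.17e-06), and *Igfbp3* was lower, at −1.06 (SE 0.0739, edgeR adjusted p = 1.58e-07). In mutant embryos the values were 1.10 for *Angpt2* and −1.02 for *Igfbp3*, each called. No pan-endothelial gene was called in mutants, where *Ptprb* was at 0.48 (edgeR adjusted p = 0.00780), just under the fold threshold, and *Plvap* at −0.24 (edgeR adjusted p = 0.273). The difference between the genotypes was not tested for these genes over both sexes.

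Among 20 blood-brain barrier genes, 5 were called higher and 2 lower in control DMH, a share at the background of 35.0%. *Lef1*, a transcription factor of Wnt signalling that neural cells also express, was higher by 1.14 (SE 0.114), and the thyroid hormone transporter *Slco1c1* by 0.65 (SE 0.0890). The lactate transporter *Slc16a1* was lower, at −1.38 (SE 0.0710), and *Tnfrsf19* at −1.001 (SE 0.0878). The libraries are of whole tissue, and which cells the reads of these genes came from was not tested. Among 16 angiogenic ligands and receptors, 0 were called higher and 4 lower, the 3 with the smallest p being *Wnt7a* at −1.35, *Notch1* at −0.92 and *Hey1* at −0.86. These 3 genes are active in neural progenitors as well as in signalling to or within vessels. The mural list, of pericyte and smooth muscle genes, had 2 of 12 genes called higher, *Vtn* at 1.05 (SE 0.0761) and *Higd1b* at 0.55 (SE 0.247, edgeR adjusted p = 0.0645). Its summed level was 283 to 331 CPM in control SP and 380 to 429 CPM in control DMH. The mural median was 0.34, and lists of other cell types were higher in DMH as well. Their medians were 0.71 for meningeal and mesenchymal, 0.51 for choroid plexus and 0.23 for microglial genes. The angiogenic and hypoxia lists had negative medians, −0.04 and −0.23.

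Among 11 hypoxia genes tested, 2 were called higher, *Slc2a3* and *Ankrd37*, and 3 lower in control DMH. The glucose transporter *Slc2a3*, largely a neuronal gene, was higher at 0.69 (SE 0.0587), and *Ndrg1*, at −1.77 (SE 0.0932), *Ldha*, at −0.91 (SE 0.0900), and *Adm*, at −0.63 (SE 0.161), were lower. *Slc2a1* itself, which hypoxia also raises in many cells, was at −0.25. The hypoxia genes as a group had a median of −0.23, against 0.00 over all genes. In mutants the same 5 genes were called, *Ankrd37* and *Slc2a3* higher and *Adm*, *Ndrg1* and *Ldha* lower, with a list median of −0.21.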

How the data were processed

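The authors deposited 1 table of read counts per gene for each of 24 libraries (polyA-enriched, stranded dUTP, paired-end), made per the submitters' processing notes with cutadapt 2.4 and STAR 2.6.1d on GRCm38.p6 (mm10). The annotation release is not given in the sources used here. The deposited counts of the strand matching the kit were used as they are. Reads that named no gene (17.3 to 25.9% of a library) were left out. Symbols were matched by identifier for 54409 of 54446 genes. Depth on genes was 24.7 to 66.8 M, so that 3 reads equal 0.0449 to 0.121 CPM.

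Genes were kept by filterByExpr, scaled by TMM and tested with the robust quasi-likelihood test of edgeR 4.0.16 in R 4.3.3, with p-values adjusted by Benjamini and Hochberg over all genes tested, and called at an adjusted p under 0.2 with an absolute log2 fold change over 0.5. Nothing in the labels says more of the replicates than that they are separate embryos. Region fits had the embryo as a block: each embryo gave both libraries, and the deviations of its SP and DMH libraries correlated at 0.0738 to 0.548 over 12 embryos. Correlations used log2(CPM + 0.25) with 100000 permutations, or exact ones under 10 libraries (scipy 1.17.1). Alternatives included DESeq2 1.42.0, other scaling, no filter and each embryo left out. No 2 libraries of a group agreed within counting noise (chi-square per gene 9.62 to 181). The tests were tried on simulated counts, where 62% of planted 2-fold and 97% of 4-fold differences among 16562 genes were recovered in the male SP design. That run had 100 genes planted at each fold, drawn from genes of all levels, and gave 44 false calls. Its rates do not apply to single genes with as few reads as *Esm1* and *Slco1a4*.

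The members and the gene lists were chosen with earlier results of these data known. All members are named; of other lists, at most the 3 called genes with the smallest p in each direction are named, and for *Esm1* and *Cldn5* the 5 genes most like them.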

Additional observations from a re-analysis of the deposited data

Results flagged for a closer look

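In 5 of 40 groups of 6 libraries, 1 library stood apart from the rest by Dixon's criterion, where chance would give about 1 group in 20. *Esm1* in DMH controls reached 1.46 CPM in male control 2, against 0.745 to 0.871 CPM in the other 5. *Cldn5* in SP controls reached 37.5 CPM in male control 3, and *Kdr* in SP controls was lowest in female control 1, at 54.6 CPM. In mutant SP, male mutant 3 was lowest for *Pecam1*, at 29.8 CPM, and for *Cdh5*, at 37.7 CPM. That library also had the lowest pan-endothelial sum of the 12 SP libraries, 183 CPM.

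In female embryos without mut3, *Esm1* lay on opposite sides of the controls in the 2 regions, although the DMH difference was not called (edgeR adjusted p = 0.551). The mean log2 ratio of mutants over controls was −1.38 in SP, where every mutant lay below every control, and 0.627 in DMH, where every mutant lay above every control. The difference between the regions was not tested in females, since *Esm1* was chosen on the SP side of it. In males the tested difference was 1.22 on the log2 scale (SE 0.736, edgeR adjusted p = 0.977).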

How the results depend on the processing

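The number of the 10 members called changed under these settings. Where a fit contains the female SP libraries, calls of *Esm1* are part of the count as a description only, since it was chosen on them. In female SP it went from 1 to 0 at an adjusted p under 0.05 and with mut3 included (*Esm1* −0.94), and was 0 to 0 when each embryo was left out in turn, the log2 fold change of *Esm1* staying between −1.88 and −1.66. In female DMH it went from 0 to 1 with no filter on low counts, with DESeq2 and with a replicate block, each time *Slco1a4* (adjusted p = 5.56e-04, 0.0655 and 0.160), and ran from 0 to 2 with embryos left out. It ran from 0 to 1 in DMH of both sexes (without male mutant 1, *Slco1a4* at −0.63) and in SP of both sexes (without male mutant 2, *Esm1* at −1.78), and from 1 to 2 between regions of controls (without male control 1, *Apln* at −0.50) and of mutants (without male mutant 1, *Cldn5* at 0.46). It went from 1 to 0 between regions of controls in male embryos only, and from 2 to 1 in mutants with mut3 included (*Cldn5* 0.46). The count of correlations passing in DMH went from 0 to 1 without libraries low in caudal Hox genes, which leaves fewer samples. No value called in a main fit had the other sign in an alternative. Alternatives could differ in sign from each other. Between regions of mutants, *Slco1a4* was called at 1.38 in males alone but reached −0.27 with 1 embryo of both sexes left out. The causes of these changes were not tested.

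Replicate numbers shared by control and mutant embryos are numbers only. The deviations of same-numbered embryos correlated from −0.177 to 0.599. A replicate block raised the calls over all genes from 3 to 52 in female SP, from 1 to 35 in female DMH and from 4 to 7 in male DMH, and left male SP at 0. With no filter the calls over all genes were 25, 1, 535 and 17 in female SP, male SP, female DMH and male DMH, and with DESeq2 6, 7, 76 and 13, against 3, 0, 1 and 4. With DESeq2 they were 38 against 8 in DMH and 23 against 0 in SP of both sexes, where no filter gave 12. In female DMH without female control 1 they were 1117. *Esm1*, at 7 to 108 reads per library, is the member whose values depth limits most.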
